A study of Mus musculus with 6 samples.

Results

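The genes of the mouse major histocompatibility complex (MHC), which carry the symbol H2, were followed in bulk RNA-seq of inguinal white adipose tissue (IWAT). Members were all rows of the deposited gene table whose symbol starts with H2-, without the suffix -ps that marks pseudogenes, and with at least 1 count in any library, together with 5 companion genes, B2m, Cd74, Ciita, Tap1, and Tap2. Of 45 H2 symbols in the table, 3 carried the suffix and 6 were at 0 in all libraries (H2-M1 and H2-M10.1 to H2-M10.5), which left 36 H2 genes and, with the companions, 41 members of 55491 genes. They comprised 23 class I genes including B2m, 14 class II genes including Cd74 and Ciita, Tap1 and Tap2, and 2 genes outside the symbol rules for either class, H2-K2 and H2-Ke6. Classes went by symbol, so that the unprocessed pseudogenes H2-Q3, H2-Pa, and H2-Pb, each with at most 2 counts in any library, stayed in them. IWAT came from 4-week-old male mice on the C57BL/6J background fed regular chow, with 1 library per mouse. The supplement of the study describes editing in fertilized eggs of a hybrid with the SJL strain, with founders then bred to the background strain. How many generations of that breeding preceded these mice is not given. Whether SJL sequence remained at the H2 genes in any mouse, and its part in the counts, was not tested. The 3 Ebf2+/+ mice were wild-type for Ebf2, which encodes a transcription factor of adipocyte commitment. The 3 Ebf2 E165X/+ mice carried 1 knock-in allele with a premature stop codon in the germline, so that the heterozygous state is not limited to adipocytes. Total counts ranged from 106820505 to 135039488 per library.

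MHC class I molecules consist of a heavy chain and β2-microglobulin, are found on nearly all nucleated cells, and present peptides made by the proteasome and carried into the endoplasmic reticulum by the TAP transporter to CD8 T cells. MHC class II molecules pair an α chain with a β chain, are made mainly by dendritic cells, B cells, and macrophages, and present peptides from endosomes to CD4 T cells. Their genes are switched on together by the class II transactivator, CIITA, and class I genes have a related activator, NLRC5. In adipose tissue, class II has been studied on resident macrophages and dendritic cells and also on adipocytes, and IWAT surrounds the inguinal lymph node, which is rich in B cells.

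The tissue and the libraries were checked before the genotypes were compared. Ebf2 itself was at 38.3, 41.3 and 37.2 CPM (counts relative to a library size scaled by TMM factors) in the Ebf2+/+ mice and 22.8, 22.9 and 21.1 CPM in the Ebf2 E165X/+ mice. The groups did not overlap, and the log2 fold change, here and below Ebf2 E165X/+ against Ebf2+/+, was −0.81 (SE 0.076), with an adjusted p of 0.0596 in edgeR's quasi-likelihood test. The call for Ebf2 depended on the tool and on single mice, since DESeq2 gave an adjusted p of 1.23e-13 and edgeR gave 0.0423 to 0.369 with single mice left out, the lowest without Ebf2 E165X/+ mouse 3. The 6 adipocyte markers summed to 14825, 16458 and 13238 CPM in Ebf2+/+ mice and 14074, 13618 and 9361 CPM in Ebf2 E165X/+ mice, with Fabp4 giving 42.1% of the sum and none at 0. Of these markers, 0 of 6 had a log2 fold change above 0 (median −0.28), and none was called. Adipoq and Lipe, 2 of the 6, were lower in Ebf2 E165X/+ mice without overlap between the genotypes. The same held for 6.78% of the 18905 genes that reached 10 counts in each of the 6 libraries. Skeletal muscle markers set 1 library apart. Their 6 genes summed to 1695, 6939 and 2716 CPM in Ebf2+/+ mice and 2931, 682 and 41183 CPM in Ebf2 E165X/+ mice, so that Ebf2 E165X/+ mouse 3 lay far above the other 5 libraries. The 15 mitochondrially encoded genes summed to 85696, 97568 and 81059 CPM in Ebf2+/+ mice and 68390.1, 57702 and 72462 CPM in Ebf2 E165X/+ mice, lower in every Ebf2 E165X/+ library. The part of these differences between libraries in the values below was not tested.

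No member was called as different between the genotypes. Calls needed an adjusted p under 0.05 and, in addition, a fold change above 1.5, which edgeR found for 3 of 32664 genes tested (0.00918%) and for 0 of the 41 members. The 3 genes, named here after their values were seen, were Cidea and the predicted genes Gm3375 and Gm5503. At an unadjusted p under 0.05, 3 members were lower in Ebf2 E165X/+ mice (H2-Q10, H2-M9, and H2-Ke6) and 0 were higher, against 3.09% of all genes lower and 1.68% higher. DESeq2 called 98 genes (0.3%), among them 1 member, H2-Q10, and limma-voom called 0 members. Levels are described below for the 31 members with at least 10 counts in every library, which are 16 class I genes, 11 class II genes, Tap1, Tap2, H2-K2, and H2-Ke6.

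**Figure D1:**
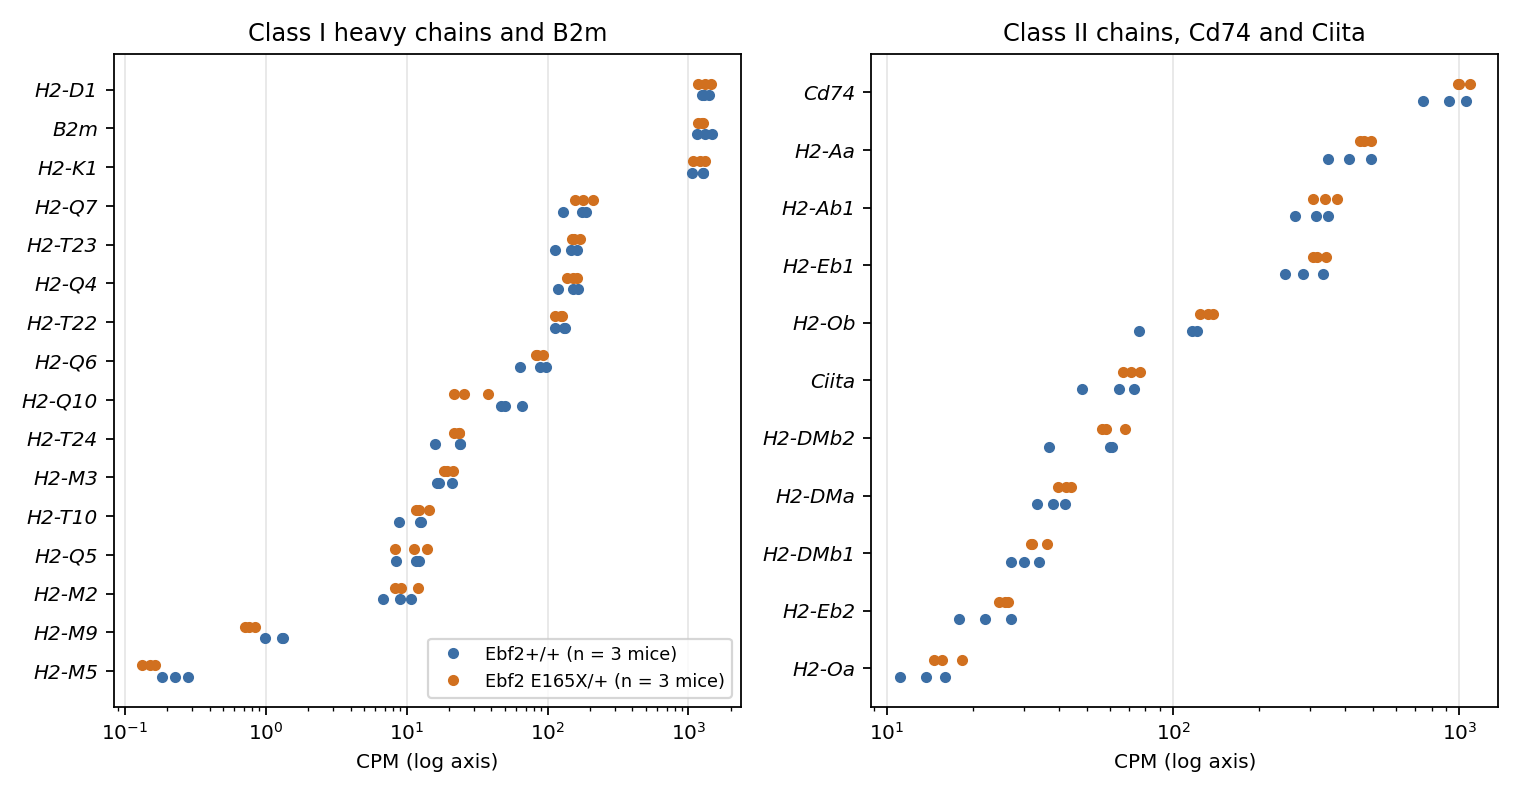
CPM (log axis) of the 16 class I and 11 class II members with at least 10 counts in every library, 1 point per mouse, with Ebf2+/+ mice in blue and Ebf2 E165X/+ mice in orange. The colors overlap for most genes, and the orange points lie apart to the left for H2-Q10, H2-M9, and H2-M5 and to the right for H2-Ob.

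The class II genes were slightly higher in the mean of Ebf2 E165X/+ mice, and none passed the test. The log2 fold change was above 0 for 11 of 11 class II members with at least 10 counts in every library, from 0.13 to 0.33 with a median of 0.17, whereas 56.1% of all genes at that level were above 0, with a median of 0.03. Class II genes are known to share the activator CIITA, whose own gene is among the 11, so that they are not 11 independent observations. Which cells carried the transcripts was not measured. All 11 had an adjusted p of 0.783 in edgeR, and 10 overlapped between the genotypes.

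H2-Aa and H2-Ab1 encode the α and β chains of the I-A molecule. H2-Aa was at 349, 410.4 and 493 CPM in Ebf2+/+ mice and 465, 490.0 and 449 CPM in Ebf2 E165X/+ mice (log2 fold change 0.16, SE 0.14). H2-Ab1 was at 266, 317 and 348 CPM and 339, 374 and 307 CPM, respectively (log2 fold change 0.13, SE 0.13). For both genes Ebf2+/+ mouse 1 was the lowest of the 6, and Ebf2+/+ mouse 3 was above the median Ebf2 E165X/+ mouse.

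H2-Eb1, the β chain of I-E, was transcribed although its partner was nearly absent. It was at 245, 283 and 333 CPM in Ebf2+/+ mice and 318, 342 and 307 CPM in Ebf2 E165X/+ mice. H2-Ea, which encodes the I-E α chain, had 1 count in 1 Ebf2+/+ library and 0 counts in the other 5, which allows up to 3 counts in each of those. C57BL/6 mice are known to carry a defective H2-Ea gene, so that the E β chain has no α chain to pair with in either genotype. The related H2-Eb2 was at 17.8, 22.0 and 27.2 CPM and 24.6, 26.5 and 25.8 CPM, with Ebf2+/+ mouse 3 above all Ebf2 E165X/+ mice.

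Cd74, the invariant chain that escorts new class II molecules and blocks their groove, was the highest class II member per kilobase of exon and by CPM. It was at 746, 924 and 1052 CPM in Ebf2+/+ mice and 986, 1089 and 997 CPM in Ebf2 E165X/+ mice (log2 fold change 0.17, SE 0.16). Ciita was at 47.9, 64.5 and 72.9 CPM and 71.5, 76.8 and 66.8 CPM (log2 fold change 0.22, SE 0.15). Both genes overlapped between the genotypes. Among the Ebf2+/+ mice, mouse 1 was the lowest for all 11 class II members and mouse 3 the highest for 10 of them, Ciita included.

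The chains of H2-DM, which removes the last Cd74 fragment from the groove, and of H2-O, which inhibits H2-DM chiefly in B cells, followed. H2-DMa was at 33.4, 37.9 and 41.8 CPM in Ebf2+/+ mice and 42.0, 43.8 and 39.5 CPM in Ebf2 E165X/+ mice. H2-DMb1 was at 27.1, 30.1 and 34.0 CPM and 32.1, 36.3 and 31.9 CPM, and H2-DMb2 was at 36.9, 61.3 and 59.9 CPM and 58.1, 67.9 and 56.4 CPM. The split between the last 2 genes is uncertain, because their transcripts are 95.7% identical over 1081 aligned bases.

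H2-Oa was at 11.1, 13.7 and 15.9 CPM and 15.5, 18.3 and 14.6 CPM (log2 fold change 0.25, SE 0.15). H2-Ob was at 76.2, 117 and 121 CPM in Ebf2+/+ mice and 124, 138 and 132 CPM in Ebf2 E165X/+ mice, a log2 fold change of 0.33 (SE 0.17, unadjusted p = 0.09 in edgeR). H2-Ob was the 1 member of 31 for which every Ebf2 E165X/+ mouse was above every Ebf2+/+ mouse, a pattern found in 6.66% of all genes that passed the same limit on counts. The nearest mice of the 2 genotypes were 3.11 CPM apart, and the log2 fold change was 0.13 without Ebf2+/+ mouse 1.

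**Figure D2:**
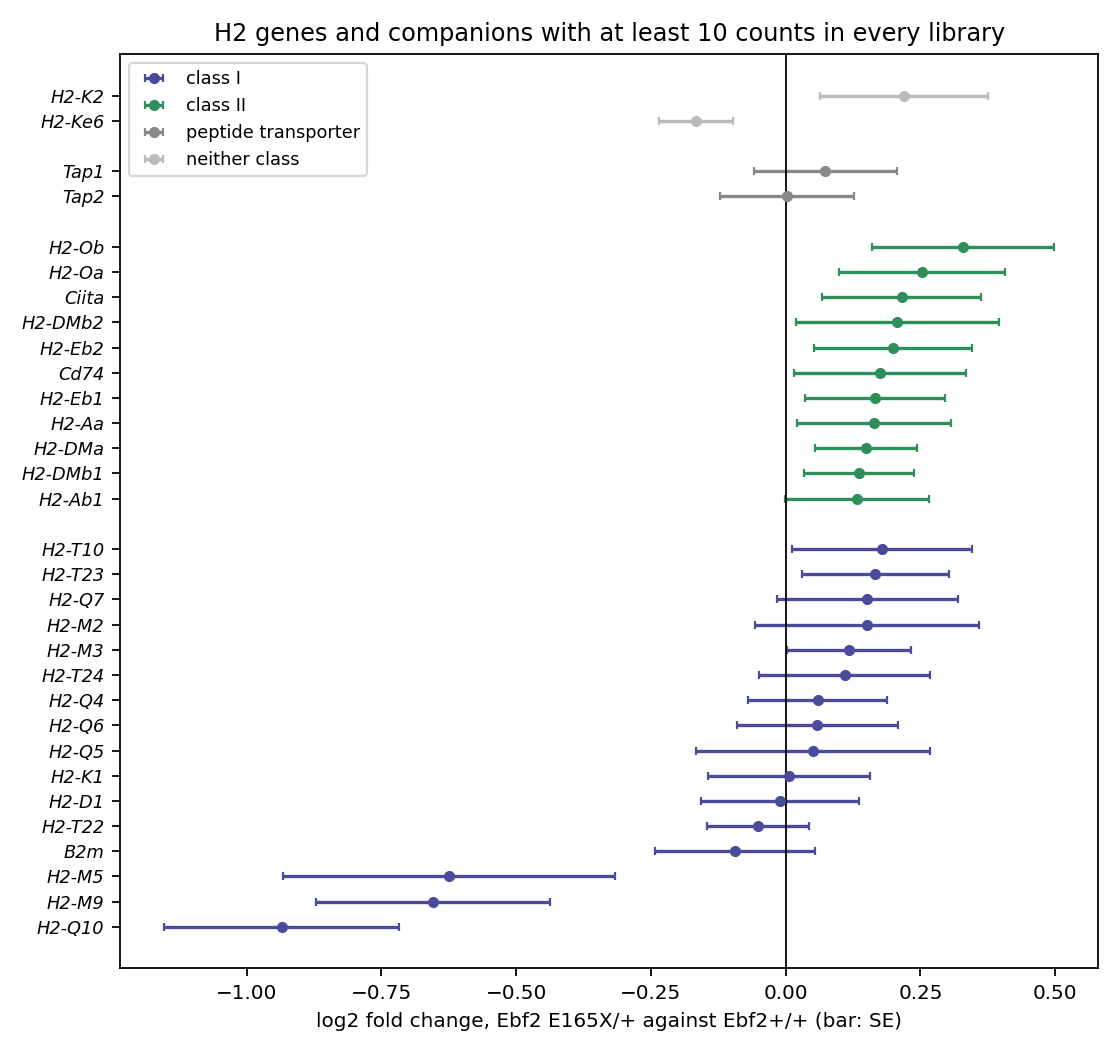
Log2 fold change of Ebf2 E165X/+ against Ebf2+/+ mice (points) with its SE (bars) for the 31 members with at least 10 counts in every library, ordered within class I, class II, the TAP genes, and the 2 genes apart. All 11 class II points lie above 0, class I points lie on both sides of it, and H2-Q10, H2-M9, and H2-M5 lie farthest to the left.

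Proportions between class II genes were narrow for some pairs and wider for others. The ratio of H2-Aa to Cd74 ranged from 0.444 to 0.471 over the 6 mice, that of H2-Eb1 to H2-Aa from 0.676 to 0.703, and that of H2-Ab1 to H2-Aa from 0.683 to 0.772. The ratio of H2-Ob to H2-Oa ranged more widely, from 6.90 to 9.02, as did that of H2-DMb1 to H2-DMb2, from 0.491 to 0.735, while the genes themselves varied up to 1.84-fold (H2-DMb2) between mice. All 11 genes were lowest in Ebf2+/+ mouse 1, and 9 of 11 were highest in Ebf2 E165X/+ mouse 2. The summed class II level was 1857, 2280.4 and 2599 CPM in Ebf2+/+ mice and 2476, 2703 and 2427 CPM in Ebf2 E165X/+ mice, with means ± SD of 2245 ± 372 and 2535 ± 147 CPM (n = 3 each) and a log2 ratio of 0.18. Ebf2+/+ mouse 1 carried most of that difference. Without it, the log2 ratio was 0.04, the median log2 fold change of the 11 genes was 0.05, and 10 of 11 were above 0. Without Ebf2 E165X/+ mouse 3, the library with high muscle markers, the log2 ratio was 0.21.

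The class II sum moved with markers of several leukocyte classes, whose part in the difference was not tested. In these bulk samples, fewer cells of a type and less RNA per cell cannot be told apart. The 7 dendritic cell markers, none at 0 and led by Ccr7 with 35% of their sum, summed to 109, 130.0 and 145 CPM in Ebf2+/+ mice and 139, 146 and 134 CPM in Ebf2 E165X/+ mice, and they placed the 6 mice in the same order as the class II sum. The 6 B cell markers, led by Ms4a1 (21.3%), summed to 325, 514 and 523 CPM and 536, 611 and 564 CPM, with no overlap between the genotypes. All 7 dendritic cell and all 6 B cell markers had a log2 fold change above 0, and none was called. Which cells carried the listed markers, Ccr7 included, was not measured.

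Other lists behaved alike or differently. The 6 T cell markers, led by Lck (24.1%), summed to 225, 291 and 298 CPM in Ebf2+/+ mice and 311, 346 and 295 CPM in Ebf2 E165X/+ mice, and all 6 log2 fold changes were above 0. The 3 pan-leukocyte markers Ptprc, Coro1a, and Laptm5, led by Ptprc (46.6%), summed to 764, 927 and 1021 CPM and 1042, 1147 and 1004 CPM, with 3 of 3 above 0. The 6 markers of lymph node stroma, such as Glycam1 (45.7% of the sum), a product of high endothelial venules, summed to 546, 589 and 576 CPM and 710.5, 684 and 586 CPM, with 6 of 6 above 0. None of these lists had a marker at 0 in any of the 6 libraries.

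The macrophage markers did not follow the class II genes. Their 7 genes, led by Mrc1 (32.7%) and with none at 0, summed to 837, 572 and 744 CPM in Ebf2+/+ mice and 791, 744 and 769 CPM in Ebf2 E165X/+ mice. Ebf2+/+ mouse 1, lowest for class II, was the highest of the 6 for macrophage markers, and 6 of 7 log2 fold changes were above 0. The 4 endothelial markers, led by Pecam1 (36.8%), summed to 958, 952 and 868 CPM and 867, 882 and 681 CPM, with 0 of 4 above 0.

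**Figure D3:**
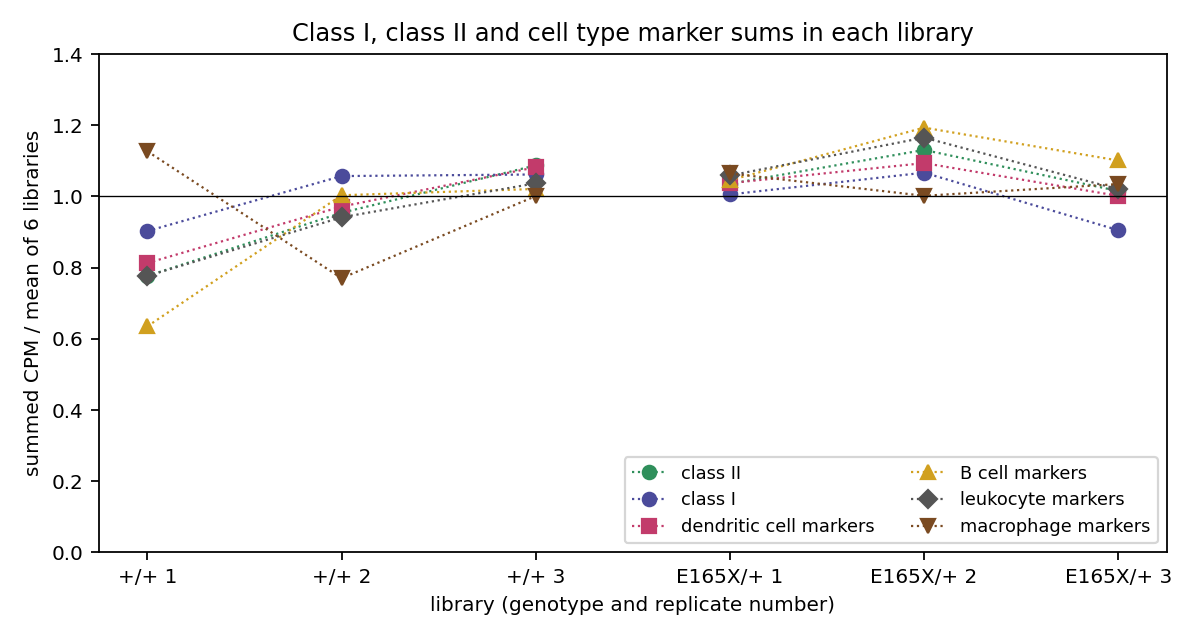
Summed CPM of the class I members, the class II members, and 4 lists of cell type markers in each library, divided by the mean of that sum over the 6 libraries. The class II, dendritic cell, B cell, and leukocyte points are all lowest in Ebf2+/+ mouse 1, where the macrophage point is highest.

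A set of 5 ratios, chosen after the values were seen, places the classes beside each other and beside marker sums, as a description with no test. The 12 class II chain genes by symbol divided by the 22 class I heavy chain genes gave 0.357, 0.384 and 0.415 in Ebf2+/+ mice and 0.425, 0.423 and 0.458 in Ebf2 E165X/+ mice, which did not overlap. The class II sum divided by the leukocyte marker sum gave 2.43, 2.46 and 2.55 and 2.38, 2.36 and 2.42, which did not overlap either, with the Ebf2 E165X/+ mice lower. The class I sum divided by the leukocyte marker sum gave 5.40, 5.22 and 4.76 and 4.42, 4.26 and 4.13. Relative to these 3 pan-leukocyte genes, both classes were lower in the 3 Ebf2 E165X/+ mice. The direction depended on the marker list. The class II sum divided by the dendritic cell marker sum gave 17.1, 17.5 and 18.0 in Ebf2+/+ mice and 17.8, 18.5 and 18.1 in Ebf2 E165X/+ mice, higher in the mean and overlapping. Divided by the B cell marker sum, it gave 5.71, 4.44 and 4.97 and 4.62, 4.42 and 4.30, lower in the mean and overlapping.

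**Figure D4:**
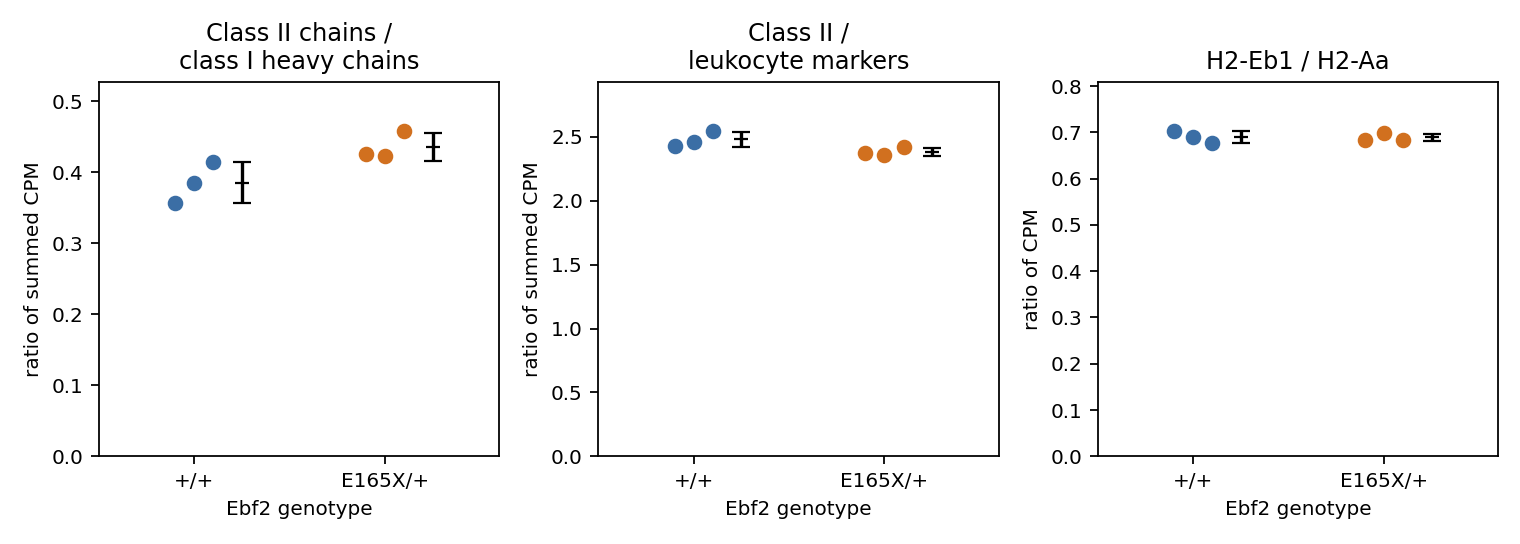
Ratio of summed CPM of class II chains to class I heavy chains (left), ratio of the class II sum to the leukocyte marker sum (middle), and ratio of H2-Eb1 to H2-Aa CPM (right), 1 point per mouse, with the mean and SD beside them (n = 3 per genotype). The genotypes do not overlap in the left and middle panels, where they differ in opposite directions, and overlap in the right panel.

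The class I genes as a group showed no common direction. Of the 16 members above the limit on counts, 10 had a log2 fold change above 0 and 6 below, with a median of 0.06 and a range from −0.93 to 0.18. Their sum over all 23 members was 4132, 4839 and 4859.5 CPM in Ebf2+/+ mice and 4603, 4883 and 4143 CPM in Ebf2 E165X/+ mice, a log2 ratio of −0.02. The split depended on single mice, since 3 of 16 were above 0 without Ebf2+/+ mouse 1 and 6 of 16 without Ebf2 E165X/+ mouse 2.

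H2-K1 and H2-D1 encode the classical heavy chains, and B2m encodes the light chain they share. H2-K1 was at 1063, 1259 and 1276 CPM in Ebf2+/+ mice and 1217, 1318 and 1078 CPM in Ebf2 E165X/+ mice (log2 fold change 0.01, SE 0.15). H2-D1 was at 1253, 1286 and 1400.2 CPM and 1310.3, 1437 and 1162 CPM (log2 fold change −0.01, SE 0.15). B2m was at 1153, 1479 and 1307 CPM and 1268, 1252 and 1171 CPM (log2 fold change −0.09, SE 0.15, and −0.20 to −0.012 with single mice left out). The genotypes overlapped for all 3 genes, and the sign of the log2 fold change turned under other scalings (H2-K1) or without single mice (H2-K1 and H2-D1). H2-D1 and H2-K1 transcripts are 90.6% identical over 1404 aligned bases, so that reads shared by the pair could have been divided between them.

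The nonclassical genes of the Q region overlapped between the genotypes except for H2-Q10. H2-Q7, which encodes the membrane-anchored Qa-2 antigen, was at 129, 176 and 188 CPM in Ebf2+/+ mice and 179.8, 212 and 156 CPM in Ebf2 E165X/+ mice. Its close copies H2-Q6 and H2-Q4 were at 63.4, 88.5 and 96.8 CPM and 83.7, 92.2 and 83.2 CPM for the former and 119.5, 151 and 163 CPM and 151, 163 and 138 CPM for the latter. H2-Q5, annotated as a polymorphic pseudogene, was at 8.39, 11.7 and 12.2 CPM and 11.2, 13.9 and 8.34 CPM. The closest pairs were 92.5% to 94.7% identical (H2-Q4 with H2-Q6, H2-Q5 with H2-Q7, and H2-Q7 with H2-Q6), which makes their individual counts uncertain.

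The T region overlapped between the genotypes, with log2 fold changes from −0.05 (H2-T22) to 0.18 (H2-T10). Without Ebf2+/+ mouse 1, H2-T10 was at 0.011 and H2-T23 at 0.018 on the log2 scale. H2-T23, which encodes Qa-1, the ligand of the inhibitory CD94/NKG2A receptor of natural killer cells, was at 113, 147 and 161 CPM in Ebf2+/+ mice and 153, 170.3 and 149 CPM in Ebf2 E165X/+ mice (log2 fold change 0.17, SE 0.14). Its transcript is 95.6% identical to that of a pseudogene over 1068 aligned bases. H2-T22, a ligand of γδ T cell receptors, was at 113, 131 and 134 CPM and 126, 126 and 113 CPM. Its copy H2-T10, 97.0% identical over 1485 aligned bases, was at 8.78, 12.4 and 12.7 CPM and 12.2, 14.5 and 11.6 CPM, so that the division between these 2 genes is uncertain. H2-T24 was at 15.8, 23.9 and 23.8 CPM and 23.4, 23.5 and 21.7 CPM, with only Ebf2+/+ mouse 1 below the rest. In the M region, H2-M3, which presents N-formylated bacterial peptides, was at 16.9, 16.6 and 20.8 CPM and 19.2, 21.2 and 18.5 CPM, and H2-M2 was at 6.82, 8.97 and 10.8 CPM and 9.12, 12.1 and 8.28 CPM. All 6 genes overlapped between the genotypes.

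Among the class I members, 3 genes were lower in every Ebf2 E165X/+ mouse than in any Ebf2+/+ mouse, as were 6.78% of all genes that passed the same limit on counts. H2-Q10, which encodes a secreted class I molecule best known from the liver, was at 65.7, 46.6 and 50.2 CPM in Ebf2+/+ mice and 37.8, 25.7 and 21.6 CPM in Ebf2 E165X/+ mice, from 7890, 4916 and 6217 counts and 4369, 3207 and 2763 counts. It was 1.91-fold lower (log2 fold change −0.93, SE 0.22) with an unadjusted p of 0.003 and an adjusted p of 0.739 in edgeR, and DESeq2 gave a log2 fold change of −0.94 with an adjusted p of 0.00321. The call therefore depended on the tool, with adjusted p values from 0.490 to 0.908 in edgeR without single mice and log2 fold changes from −1.20 to −0.77.

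H2-Q10 did not follow its neighbors. Its ratio to H2-K1, its closest copy in sequence with 86.1% identity over 1320 aligned bases, was 0.0618, 0.0371 and 0.0393 in Ebf2+/+ mice and 0.0310, 0.0195 and 0.0200 in Ebf2 E165X/+ mice. The ratio of H2-Q7 to H2-K1 was 0.122, 0.140 and 0.148 and 0.148, 0.161 and 0.145, which overlapped. Hepatocyte genes, listed after the H2-Q10 values were seen, were low. The 6 genes summed to 20.6, 13.6 and 11.3 CPM in Ebf2+/+ mice and 12.2, 14.0 and 12.0 CPM in Ebf2 E165X/+ mice, with Alb giving 80.2% of the sum and Ttr and Fga at 0 in at least 1 library. That sum overlapped between the genotypes. The adipocyte marker sum given above was also lower in the mean of Ebf2 E165X/+ mice, with overlap, and its part in the H2-Q10 values was not tested. The part of any SJL sequence remaining at H2-Q10 was not tested either.

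H2-M9, known from vomeronasal sensory neurons, was at 1.33, 0.996 and 1.32 CPM in Ebf2+/+ mice and 0.709, 0.841 and 0.765 CPM in Ebf2 E165X/+ mice, from 160, 105 and 163 counts and 82, 105 and 98 counts (log2 fold change −0.65, SE 0.22, unadjusted p = 0.018 in edgeR). H2-M5 had only 22, 24 and 35 counts in Ebf2+/+ mice and 19, 19 and 17 counts in Ebf2 E165X/+ mice (log2 fold change −0.62, SE 0.31). At these depths counting error is part of the spread, and neither gene was called by edgeR or limma-voom. DESeq2 did not call H2-M9 and gave no adjusted p for H2-M5.

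**Figure D5:**
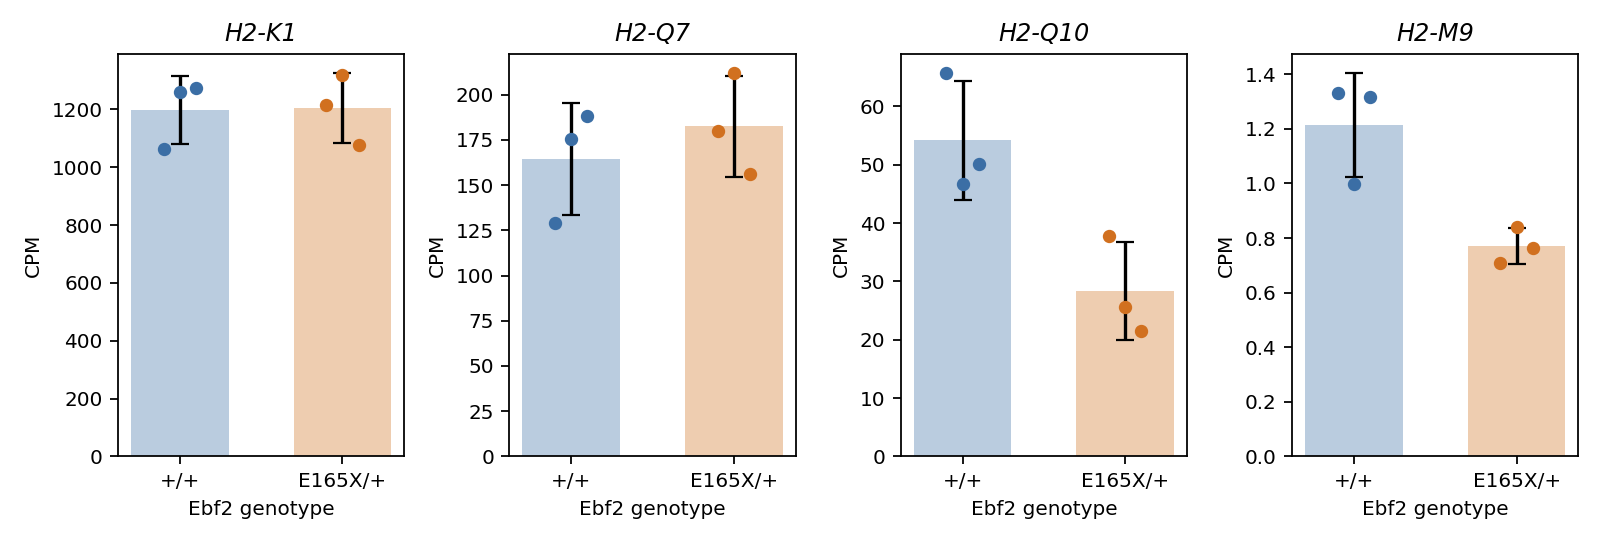
CPM of H2-K1, H2-Q7, H2-Q10, and H2-M9 in Ebf2+/+ and Ebf2 E165X/+ mice, with bars for the mean, error bars for the SD (n = 3 per genotype), and 1 point per mouse. The genotypes overlap for H2-K1 and H2-Q7 and do not overlap for H2-Q10 and H2-M9.

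The genes apart from both classes were H2-K2 and H2-Ke6. H2-Ke6, an older name for the steroid dehydrogenase gene Hsd17b8, was at 38.7, 40.4 and 40.8 CPM in Ebf2+/+ mice and 36.3, 37.0 and 33.6 CPM in Ebf2 E165X/+ mice (log2 fold change −0.17, SE 0.068, unadjusted p = 0.043 in edgeR). The genotypes did not overlap, although the shift was small, and 1419 exon bases are shared with a readthrough gene on the same strand (Gm20427). H2-K2, annotated as a transcribed pseudogene, was at 8.08, 10.3 and 12.1 CPM and 11.3, 12.4 and 11.8 CPM and overlapped between the genotypes.

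The remaining 10 members were near the limit of detection. The 7 class I genes among them (H2-Bl, H2-M10.6, H2-M11, H2-Q1, H2-Q2, H2-Q3, and H2-T3) had at most 28 counts in any library, and the 3 class II genes (H2-Ea, H2-Pa, and H2-Pb) had at most 2. No difference between the genotypes was detectable at this depth.

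The machinery that loads class I molecules was close to even between the genotypes. Tap1 was at 82.1, 109 and 111 CPM in Ebf2+/+ mice and 109, 114 and 94.8 CPM in Ebf2 E165X/+ mice (log2 fold change 0.07, SE 0.13), and Tap2 was at 96.2, 113 and 105 CPM and 107, 119.9 and 87.9 CPM (log2 fold change 0.00, SE 0.12). Nlrc5, the class I activator, was at 56.6, 73.2 and 75.8 CPM and 75.5, 81.2 and 67.7 CPM (log2 fold change 0.13, SE 0.13), and it was lowest in Ebf2+/+ mouse 1, as Ciita was. In the class I pathway list of 15 genes, which includes B2m, Tap1, and Tap2, 6 genes had a log2 fold change above 0 and 9 below, with a median of −0.01.

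Within that list, Psme1 had the lowest log2 fold change and an unadjusted p under 0.05. Psme1, a subunit of the PA28 activator of the proteasome, was at 105, 128 and 117 CPM in Ebf2+/+ mice and 94.6, 99.3 and 93.5 CPM in Ebf2 E165X/+ mice (log2 fold change −0.28, SE 0.092, unadjusted p = 0.016 and adjusted p = 0.783 in edgeR). Its partner subunit Psme2 was at 99.4, 95.5 and 99.2 CPM and 97.2, 108 and 92.5 CPM, which overlapped.

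Among 13 genes of the class II pathway, which include Ciita and Cd74, 10 were above 0 and 3 below, with a median of 0.11. Marchf1, a ubiquitin ligase that takes class II molecules off the surface of B cells and dendritic cells, was at 29.0, 34.6 and 41.2 CPM in Ebf2+/+ mice and 45.1, 42.4 and 41.3 CPM in Ebf2 E165X/+ mice (log2 fold change 0.30, SE 0.12, unadjusted p = 0.046 and adjusted p = 0.783 in edgeR). Its groups were separate by less than 1 CPM, and the log2 fold change was 0.17 without Ebf2+/+ mouse 1. Rfxank, a subunit of the RFX complex that binds class II promoters, had the lowest value of the list, with 16.6, 16.0 and 16.6 CPM and 15.5, 16.4 and 15.4 CPM (log2 fold change −0.06, SE 0.082), and its groups overlapped.

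Cd1d1, Mr1, Fcgrt, and Hfe encode class I-like molecules outside the complex. All 4 had a log2 fold change below 0, with a median of −0.07. Mr1, which presents vitamin B metabolites to mucosal-associated invariant T cells, was at 47.2, 38.7 and 41.1 CPM in Ebf2+/+ mice and 34.2, 36.1 and 34.5 CPM in Ebf2 E165X/+ mice (log2 fold change −0.28, SE 0.087, unadjusted p = 0.014 and adjusted p = 0.783 in edgeR), without overlap. Fcgrt, the neonatal Fc receptor, was the closest to 0 of the 4 at 247, 212 and 237 CPM and 246, 215 and 211 CPM.

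The 14 interferon-γ inputs and targets, which are also inducers and co-targets of both MHC classes, split evenly, with 7 above and 7 below 0 and a median of 0.01. Ifng itself was at 0.208, 0.380 and 0.299 CPM in Ebf2+/+ mice and 0.285, 0.288 and 0.219 CPM in Ebf2 E165X/+ mice, which overlapped. Ifngr2, a chain of its receptor, had the highest log2 fold change of the list (0.34, SE 0.16), with 38.4, 39.3 and 42.1 CPM and 42.6, 43.9 and 64.8 CPM, and its highest value came from Ebf2 E165X/+ mouse 3, the library with high muscle markers. Of the 46 genes in the 4 pathway lists, 5 of them members, 0 were called by edgeR or by DESeq2, and 1 was higher and 2 were lower at an unadjusted p under 0.05, close to the 1.68% and 3.09% of all genes tested.

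Levels were ordered between genes per kilobase of merged exon. B2m was the highest at 1479 ± 136 CPM per kilobase (SD, n = 6 mice of both genotypes), above all other members in every library. Cd74 (575 ± 72.4) and H2-D1 (507 ± 38.7) followed and overlapped across libraries, and H2-K1 (409 ± 36.4) lay below every library of H2-D1. After a gap came H2-Eb1 (157 ± 18.4), H2-Ab1 (127 ± 14.6), and H2-Aa (117 ± 14.5) CPM per kilobase, whose ranges overlapped. The lowest of the 31 members was H2-M5, at 0.0707 ± 0.021 CPM per kilobase. If the libraries were primed at the 3′ end, as the supplement of the study describes, division by length understates long transcripts, and merged exons of all isoforms lengthen genes such as H2-Aa further. The top of the order then turns, since by CPM without division by length H2-D1 was above B2m in 4 of 6 libraries and Cd74 was below H2-K1 in all 6. By CPM, H2-Aa was also above H2-Ab1 and H2-Eb1 in all 6 libraries, whereas its mean per kilobase was below theirs.

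Of the 41 members, 38 lie on chromosome 17, from 33974659 to 37483552 (GRCm38, GENCODE M21), with B2m, Cd74, and Ciita on other chromosomes. H2-Q10 is at chr17:35470089-35474563 on the plus strand, and H2-Q7 at chr17:35439155-35443773 on the same strand. H2-Aa is at chr17:34282744-34287823 on the minus strand and H2-Ob at chr17:34238903-34254414 on the plus strand, all 4 protein coding. Exons of H2-DMa, H2-Oa, H2-Q4, H2-T10, H2-T22, Ciita, Tap1, and Tap2 overlap a gene on the other strand. Whether the counting used strand is not given in the sources used here, so that these genes and their partners may not be fully told apart.

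Promoter sequences were compared because all 11 class II genes were lowest in the same mouse while H2-Q10 departed from its close copies. Windows of 65 bases upstream of the RefSeq start are shown 5′ to 3′ on the strand of the gene (GRCm38.p6), with capitals for TGACG (the core of the X2 box) and for CCAAT or its reverse complement ATTGG (the core of the Y box), elements at which MHC activators are known to assemble. They cover 3 class II genes, the light chain, and 5 class I genes of which H2-Q10 and H2-M9 were lower in all Ebf2 E165X/+ mice. Capitals mark the letters wherever they occur, whether or not the match is a known element. In H2-Q4, TGACG follows ATTGG, whereas in H2-Aa TGACG precedes ATTGG.
H2-Aa (chr17:34287837-34287901, minus strand): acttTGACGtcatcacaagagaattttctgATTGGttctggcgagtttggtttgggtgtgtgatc
H2-Eb1 (chr17:34305778-34305842, plus strand): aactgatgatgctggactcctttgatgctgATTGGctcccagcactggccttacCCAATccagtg
H2-Ob (chr17:34238818-34238882, plus strand): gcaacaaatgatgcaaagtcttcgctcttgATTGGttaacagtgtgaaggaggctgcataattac
B2m (chr2:122147604-122147668, plus strand): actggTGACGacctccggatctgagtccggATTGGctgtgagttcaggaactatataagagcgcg
H2-Q4 (chr17:35379508-35379572, plus strand): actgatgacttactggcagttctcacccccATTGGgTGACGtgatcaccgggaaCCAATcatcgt
H2-Q6 (chr17:35424741-35424805, plus strand): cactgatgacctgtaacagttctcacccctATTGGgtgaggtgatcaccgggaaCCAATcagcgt
H2-Q7 (chr17:35439085-35439149, plus strand): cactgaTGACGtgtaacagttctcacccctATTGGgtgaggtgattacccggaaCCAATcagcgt
H2-M9 (chr17:36642706-36642770, minus strand): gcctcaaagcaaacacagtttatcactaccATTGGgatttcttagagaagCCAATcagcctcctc
H2-Q10 (chr17:35469983-35470045, plus strand): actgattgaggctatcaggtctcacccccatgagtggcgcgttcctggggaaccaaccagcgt

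The H2-Q10 window is the stretch of 63 bases that aligned best to the H2-Q4 window, with 48 of 62 aligned bases identical, against 57 of 64 for H2-Q6 and 55 of 64 for H2-Q7. It holds none of the 3 motifs at the places where H2-Q4, H2-Q6, and H2-Q7 have ATTGG and CCAAT. In the 250 bases before the start, on either strand, CCAAT was found in 37.5% of 27025 genes. It was found in 8 of 8 class II members searched. It was also found in 11 of 13 class I members with an entry, the exceptions being H2-M5 and H2-Q10. Of the class II genes, H2-Ab1 and Ciita had no promoter entry, and Cd74 was left out of the search by choice. Of the 3 class I genes lower in every Ebf2 E165X/+ mouse, H2-Q10 and H2-M5 had no CCAAT in this stretch and H2-M9 had it. These are matches of letters only, and their part in the levels was not tested.

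TGACG was found in 19.8% of genes, in 8 of 13 class I members, and in 1 of 8 class II members (H2-Aa). TGACG followed by ATTGG at a spacing of 24 to 26 bases, a pattern added after the sequences were seen, was found in 0.111% of genes and in 5 class I members (B2m, H2-D1, H2-K1, H2-M3, and H2-Q7) and H2-Aa. The core of the interferon-stimulated response element, GAAA followed by any 2 bases and GAAA, was found in 3.46% of genes and in 3 class I members (B2m, H2-T22, and H2-T23). A κB motif of GGGGA, any base, and TTCC was found in 0.359% of genes and in H2-M2 and H2-Q4, and GGGGATTCC, added after the sequences were seen, in 0.255% of genes and in H2-D1, H2-K1, H2-Q6, and H2-Q7. None of the 8 class II genes searched had either κB motif or the interferon core in these 250 bases.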

How the data were processed

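IWAT RNA from 6 mice was sequenced, each mouse as its own library. Expected counts per gene were deposited by the authors, not scaled for library size, and all 332946 values were whole numbers. The submitters' processing notes name cutadapt 4.8, STAR 2.7.8a, RSEM 1.3.3, and GRCm38. The study's supplement describes 3′ mRNA libraries and a later Ensembl annotation, whereas the labels give a different kit. How reads shared by close copies were divided was not stated beyond RSEM's estimate.

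Genotypes were taken from the sample labels. Counts were analyzed with edgeR 4.0.16 (R 4.3.3). Genes at 0 in all libraries were dropped, scaling used TMM, and glmQLFTest was run with genotype as the only term, with Benjamini-Hochberg adjustment over all 32664 genes. The SE was the log2 fold change divided by the square root of F. CPM used TMM-scaled library sizes. p values measure the spread between 3 mice per genotype. At these depths, counting error is small except for the lowest genes. Alternatives were DESeq2 1.42.0 and its size factors, limma 3.58.1 (voom), 2 filters on low counts, library sizes without mitochondrially encoded genes, a replicate block, no threshold on fold change, and each mouse left out. Scripts were tested on simulated data.

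Members and lists were chosen with earlier results of these data known. Genes were named by rule: members with at least 10 counts in every library, pathway genes with an unadjusted p under 0.05 or the most extreme log2 fold change of their list, Nlrc5, Ciita, and Ebf2. Psme2 was added as the partner of Psme1, and the hepatocyte list and 2 motifs were added after values were seen. Positions, exon lengths, and overlaps came from GENCODE M21, identity between transcripts from blastn 2.17.0, and promoters from RefSeq (GRCm38.p6), aligned with Biopython 1.88. Of the members with at least 10 counts in every library, 13 class I and 8 class II genes with a promoter entry were searched, without Cd74. H2-Ab1, Ciita, H2-Q5, H2-T10, and H2-T24 had no entry and were not searched.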

Additional observations from a re-analysis of the deposited data

How the results depend on the processing

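The number of genes called over the whole table was 3 in edgeR, 98 in DESeq2, and 1 to 11 when single mice were left out, with 1 without Ebf2+/+ mouse 2 and 11 without Ebf2 E165X/+ mouse 3. Class I members called were 0, or 1 in DESeq2 (H2-Q10), and 0 to 0 without single mice. Class II members and the pathway lists had 0 calls under every alternative run, by edgeR, DESeq2, or limma-voom.

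Signs turned under other scalings, filters, tools, or the block for H2-K1 and Tap2, and without single mice for 11 genes, among them H2-DMb2 (0.21), H2-M2 (0.15), and H2-Q7 (0.15). H2-K1 (0.0065) was −0.0025 with DESeq2 size factors and with DESeq2, −0.015 with at least 10 counts in every library, and −0.0084 without mitochondrially encoded genes. Tap2 (0.0021) was −0.0070 with DESeq2 size factors, −0.0069 with DESeq2, −0.0061 with limma-voom, −0.0011 with filterByExpr, −0.020 with at least 10 counts in every library, and −0.013 without mitochondrially encoded genes. With single mice left out, log2 fold changes ranged from −0.088 to 0.080 for H2-K1, −0.10 to 0.11 for Tap2, −0.069 to 0.15 for Tap1, −0.087 to 0.065 for H2-D1, −0.025 to 0.29 for H2-M2, −0.076 to 0.13 for H2-Q4, −0.14 to 0.22 for H2-Q5, −0.12 to 0.16 for H2-Q6, −0.011 to 0.25 for H2-Q7, −0.077 to 0.19 for H2-T24, and −0.010 to 0.32 for H2-DMb2. The log2 ratio of the sums ranged from 0.04 to 0.27 for class II and from −0.11 to 0.04 for class I. Without Ebf2+/+ mouse 1, 3 of 16 class I genes were above 0. The cause of these turns was not tested.

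What the replicate numbers of the labels mark is not stated. Deviations from the group means of same-numbered mice correlated at 0.15, −0.28, and −0.16 across genes. The highest correlation was 0.39, between Ebf2+/+ mouse 2 and Ebf2 E165X/+ mouse 3. Deviations from a mean of 3 mice depend on each other, so these values do not settle whether the numbers mark litters or batches. With the replicate block, 2 genes and 0 members were called, H2-Q10 was at −0.96 (adjusted p = 0.705 in edgeR), and Tap2 was at −0.0063, and no other member turned sign. With 3 mice per genotype, the class II differences did not pass the test, and depth limits H2-M5, H2-M9, and the 10 members under 10 counts.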
